A study of Gallus gallus with 12 samples.

Results

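These are 67 genes of sorted chick microglia whose mean level 24 h after lipopolysaccharide (LPS) was higher than after saline in chicks without early heat conditioning, and was not higher, or hardly so, in chicks that had been heat-conditioned. They were chosen by their measured values. Counts were divided by the total of their library and expressed as CPM, the usual depth-scaled unit, and genes with at least 150 counts over the 12 libraries were kept, which left 3999 of the 11207 genes in the deposited table. Group means of CPM were compared after adding 5. Genes entered when the log2 ratio of LPS to saline was at least 0.8 without conditioning and under 0.3 after it. Both log2 ratios, and every difference made from them, are therefore descriptions of the choice, and calls made on them are given further on as counts only.

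The RNA came from microglia of young chickens (Gallus gallus), isolated by flow cytometry out of anterior hypothalami, and each library was made from a pool of 10 to 12 birds killed on day 11 after hatching. The 4 groups of 3 libraries were LPS after conditioning, saline after conditioning, LPS without conditioning and saline without conditioning. Conditioning was 24 h at 39°C on day 3, and on day 10 every bird received an injection of LPS or of saline in the third ventricle, so the saline birds were injected too. The labels name no strain, sex, sorting marker or LPS dose.

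Microglia are the resident macrophages of the brain. LPS, a component of the outer membrane of Gram-negative bacteria, is sensed through Toll-like receptor 4, which switches on the transcription factor NF-kB and with it cytokines, chemokines and antimicrobial proteins. The anterior hypothalamus holds neurons that regulate body temperature. Exposing chicks to heat in the first days after hatching is known to change their later response to heat. The labels give the study's subject as lasting effects of this early stress on hypothalamic microglia.

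The deposited table identifies genes by Ensembl identifier alone, and the reference table gave a symbol for 0 of them. What each of the 67 genes does is for that reason not described, the cell type could not be checked against its markers, and at most 2 genes are given by identifier. The others are described by their values. Library totals ran from 189180 to 963146 counts. Saline non-conditioned replicate 2 was the shallowest library, where a single count stands for 5.29 CPM, and 23 of the 67 genes had 3 counts or fewer in it. In the other libraries between 0 and 8 of the 67 were at or under 3 counts. The 67 genes were of low to middle abundance, with a median mean level of 50.9 CPM against 76.1 CPM for all 3999 genes, and between 150 and 2091 counts each. In cells pooled from many birds, fewer cells that express a gene and less of its RNA per cell cannot be told apart.

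Most of the 67 genes differed by about 2-fold and a few by far more. The log2 ratio of LPS to saline had a median of -0.13 after conditioning, within -1.52 to 0.29, and of 0.98 without conditioning, within 0.82 to 5.40. Over all 3999 genes the medians were -0.01 and 0.01. Without conditioning 36 of the 67 ratios were under 1, 24 were under 0.9, and 5 were 2 or more. After conditioning 45 of the 67 lay between -0.3 and 0.3, while 22 were under -0.3. The genes next to the limits show how the list was drawn. The lowest ratios inside without conditioning were both 0.82, and the highest outside were 0.80 and 0.79. After conditioning the highest ratios inside were both 0.29, and the lowest outside were 0.30 and 0.31.

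**Figure D1:**
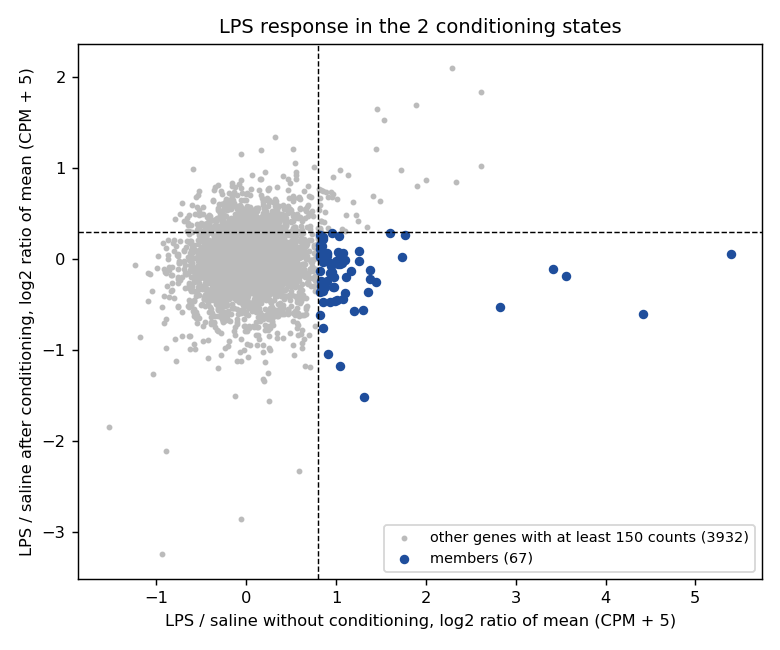
Log2 ratio of LPS to saline, from group means of CPM + 5, without conditioning (horizontal) and after it (vertical), with 1 point per gene and dashed lines at the limits of 0.8 and 0.3. Most of the 67 genes sit just right of the limit, and 5 lie at 2 or beyond without conditioning.

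Of the 110 genes with a log2 ratio of at least 0.8 without conditioning, these 67 had under 0.3 after it, 29 had 0.3 to 0.8 and 14 had at least 0.8. In the other direction, 12 of the 37 genes with at least 0.8 after conditioning had under 0.3 without it. That imbalance of 67 against 12 was not tested. Over all 3999 genes the ratios had an SD of 0.393 without conditioning and 0.335 after it. Both SDs include the 67 and the 12 genes, which were chosen on these ratios, so they are no independent background. Leaving out 1 library at a time gave 50 to 193 genes for the first pattern and 10 to 26 for the second.

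Seen together, the 67 genes stood out in the LPS non-conditioned libraries and were low in the saline non-conditioned ones, with both conditioned groups between. Their summed level was 4317, 3932 and 3773 CPM in the LPS conditioned libraries (replicates 1 to 3) and 4306, 3895 and 5717 CPM in the saline conditioned libraries. It was 10449, 7111 and 5320 CPM in the LPS non-conditioned libraries and 3744, 2765 and 2644 CPM in the saline non-conditioned libraries. The 3 LPS non-conditioned sums did not overlap with those of saline, but replicate 1 was far above replicate 3, and replicate 3 lay below the highest saline conditioned library. The median gene of the 67 shows the same order with less weight on the abundant genes, at 40.6, 41.6 and 44.3 CPM with LPS and 45.8, 42.3 and 54.0 CPM with saline after conditioning. Without conditioning it was at 85.0, 63.4 and 59.9 CPM with LPS and 41.2, 26.4 and 29.4 CPM with saline. The median of all 3999 genes stayed between 68.6 and 79.3 CPM in the 12 libraries. The choice set mean LPS levels above saline without conditioning and favours this order of the groups. These sums and medians therefore describe the list.

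**Figure D2:**
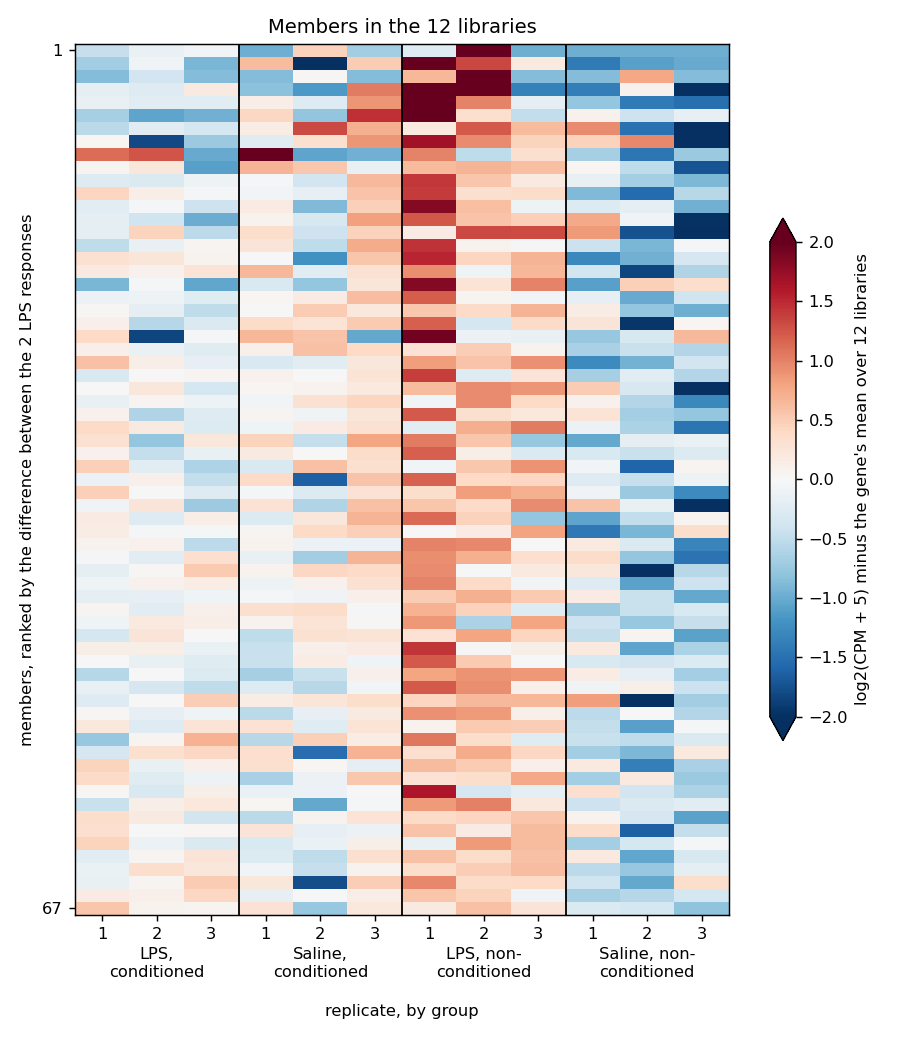
Level of each of the 67 genes (rows, ranked by the difference between their 2 LPS responses) in the 12 libraries (columns, replicates 1 to 3 of each group), as log2(CPM + 5) minus the gene's mean. The colour scale is capped at both ends. LPS non-conditioned replicate 1 holds many of the highest values, and replicate 2 holds those of the genes that were high in that pool alone. Saline non-conditioned replicates 2 and 3 hold many of the lowest.

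Single libraries had a visible part in this. LPS non-conditioned replicate 1 was the highest of its 3 replicates in 38 of the 67 genes, against 33.5% of all 3999 genes, and in 23 it held over 50% of the 3 libraries' summed CPM. Saline conditioned replicate 3, the deepest library, was the highest of its group in 44 of the 67, against 40.0% of all genes. Both were the highest of their groups in 27 of the 67, against 12.4% of all genes. The choice favours genes that are high in a single LPS non-conditioned or saline conditioned library, so these counts describe the list. What sets these libraries apart was not tested, and cell type markers could not be read.

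ENSGALG00000010915.4 had the largest difference between the LPS responses among the genes that could be named by the rule for naming. It was at 8.54, 15.8 and 6.64 CPM with LPS and 28.8, 0 and 25.96 CPM with saline after conditioning. Without conditioning it was at 541, 50.4 and 19.95 CPM with LPS and at 3.17, 5.29 and 5.88 CPM with saline. Every LPS library lay above every saline library without conditioning, whereas the conditioned groups overlapped. The non-conditioned values rest on 172, 31 and 6 counts with LPS and 1, 1 and 3 counts with saline, so every saline library was at or under a floor of 3 counts. Relative to library totals, the summed LPS counts were 34.4 times the summed saline counts (exact 95% interval 14.5 to 107, counting error only), and replicate 1 held 172 of the 209 LPS counts. With that library left out the log2 ratio of LPS to saline without conditioning was 2.04, against 4.42 with all libraries. The log2 fold change in edgeR was then 2.82, against 5.21, and no longer called, nor was it called with any 1 of the saline non-conditioned libraries left out. The spread among the LPS non-conditioned pools was as large as their mean, at 204 ± 293 CPM (SD, n = 3).

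ENSGALG00000033171.1 was more abundant and showed the same shape on larger counts. It was at 160.1, 153 and 153 CPM with LPS and 195, 148 and 332 CPM with saline after conditioning. In non-conditioned birds it was at 1168, 357 and 156 CPM with LPS and at 101, 63.4 and 58.8 CPM with saline. The LPS non-conditioned libraries spanned a wide range, from a level equal to that of the LPS conditioned libraries up to the highest of all 12. The saline non-conditioned libraries lay below the other 9. Its log2 ratio of LPS to saline was -0.52 after conditioning and 2.83 without it, and the second of these fell to 1.72 when LPS non-conditioned replicate 1 was left out. After conditioning the ratio was -0.14 without saline conditioned replicate 3. Across the 12 libraries 13 of the other 66 genes had a Pearson correlation of at least 0.8 with this gene in log2(CPM + 5), as did 8 of the 3932 genes outside the list. With ENSGALG00000010915.4 the correlation was 0.88. All these points share their libraries, and the 67 were chosen on the same values, so the correlations are descriptions.

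**Figure D3:**
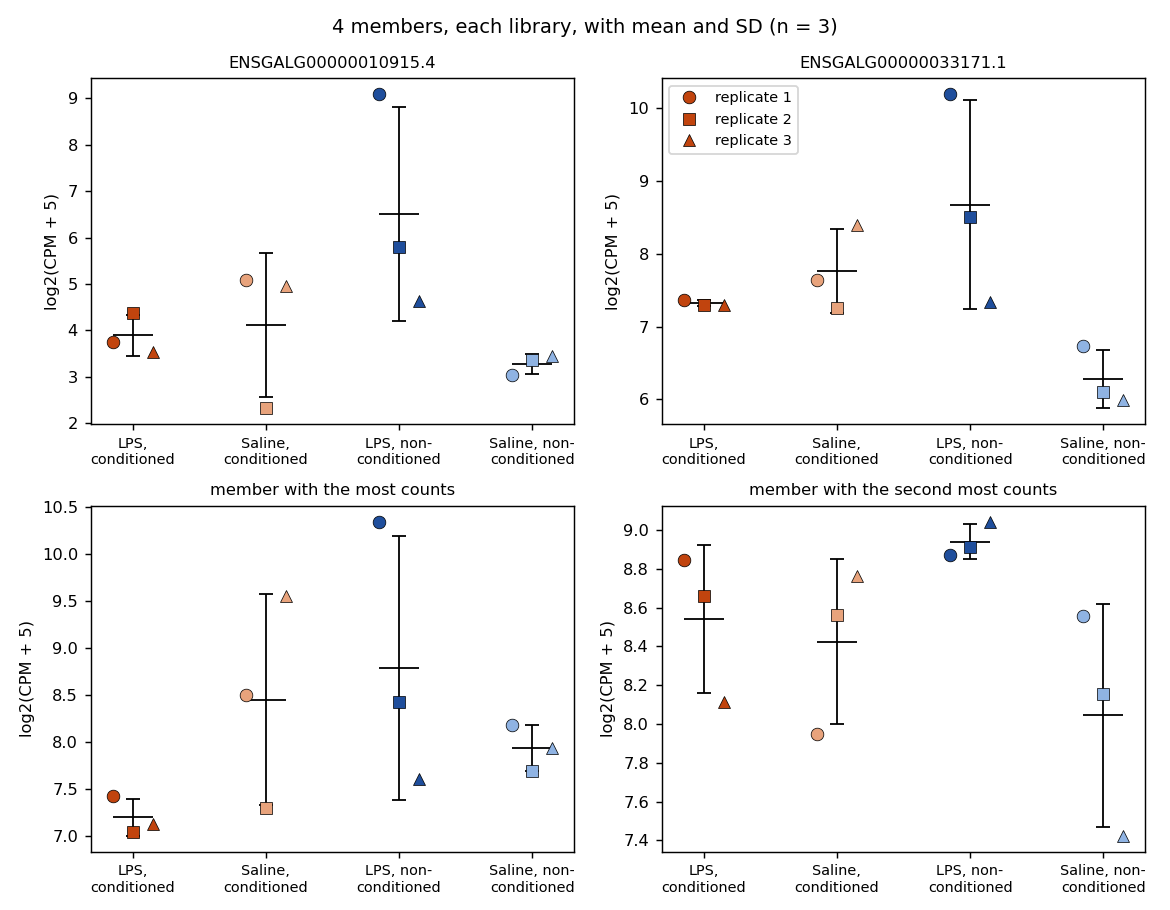
Log2(CPM + 5) of 4 of the 67 genes in each library, with the mean and SD of each group (n = 3). Replicate 1 of LPS without conditioning lies far above the others in the first 3 genes, and in the fourth the 3 LPS non-conditioned libraries lie together, narrowly above the other 9.

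The 2 genes with the most counts contrast in how their 3 LPS non-conditioned pools behaved. The gene with 2091 counts was at 167, 127 and 135 CPM with LPS and 358, 152 and 743 CPM with saline after conditioning. In non-conditioned birds it was at 1290, 338 and 189.5 CPM with LPS and at 285, 201 and 239 CPM with saline. Here LPS non-conditioned replicate 3 lay below all 3 saline libraries, so the higher mean came from the other replicates and chiefly from replicate 1. After conditioning all but 1 of the saline libraries lay clearly above the LPS libraries, which gave the lowest ratio of the list, -1.52. The gene with 2035 counts was at 455, 400.1 and 272 CPM with LPS and 242, 373 and 429.8 CPM with saline after conditioning. Non-conditioned pools were at 463, 476 and 522 CPM with LPS, against 371, 280.2 and 167 CPM with saline. Its LPS non-conditioned pools were tight (487 ± 31.2 CPM, SD, n = 3) and narrowly above the other 9 libraries. The nearest libraries, replicate 1 of LPS without and after conditioning, were at 463 and 455 CPM, where a single count stands for 3.15 and 2.13 CPM. The non-conditioned saline pools were less tight (273 ± 102 CPM, SD, n = 3), and the ratio of 0.83 became 0.57 without saline non-conditioned replicate 3.

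A pair of genes with very large ratios came from a single pool. The first, with the largest ratio of the list at 5.40, had 379 of its 388 counts in LPS non-conditioned replicate 2, where it was at 616 CPM, and at most 2 counts in any other library. The second, at 3.56, had 171 of its 178 counts in the same library, at 278 CPM, and at most 3 counts elsewhere. Neither passed the filter on low counts of the model described below, which requires counts in several libraries. These genes were picked out after their values were seen.

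One more gene with a ratio above 3 was high in the first and second LPS pools. It was at 21.3, 19.8 and 28.8 CPM with LPS and 11.9, 8.47 and 56.1 CPM with saline after conditioning. Non-conditioned pools were at 375, 135 and 6.65 CPM with LPS, the last of these 2 counts, and at 6.34, 26.4 and 1.96 CPM with saline. The LPS and saline pools thus overlapped without conditioning in spite of a ratio of 3.42.

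Separation of the pools was less common than the ratios imply. Without conditioning every LPS library lay above every saline library in 35 of the 67 genes, a pattern found in 5.9% of all 3999 genes, and the choice of the list favours it. After conditioning no gene of the 67 had every LPS library above every saline library (7.73% of all genes), and 5 had every LPS library below (8.28% of all genes). In 3 of these 5 the LPS libraries also lay above all saline libraries without conditioning (0.325% of all genes). In 6 of the 67 the LPS non-conditioned libraries lay above the other 9 (0.55% of all genes), and in 8 the saline non-conditioned libraries lay below the other 9 (1% of all genes). The choice works against LPS libraries above saline after conditioning and favours the other patterns, so all these counts describe the list.

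The 6 genes with LPS non-conditioned pools above all others include some of the tightest of the list. One was at 38.4, 59.4 and 48.7 CPM with LPS and 35.6, 42.3 and 64.4 CPM with saline after conditioning. Non-conditioned pools were at 107, 115 and 113 CPM with LPS, against 66.6, 52.9 and 35.3 CPM with saline. Its group means were 48.9 ± 10.5 and 47.4 ± 15.0 CPM after conditioning and 112 ± 4.31 and 51.6 ± 15.7 CPM without it (LPS and saline, SD, n = 3), so 3 groups lay together and 1 stood apart. Another was at 38.4, 39.6 and 42.1 CPM with LPS and 44.1, 42.3 and 48.8 CPM with saline after conditioning. In non-conditioned birds it was at 66.1, 76.4 and 66.5 CPM with LPS, against 50.7, 31.7 and 19.6 CPM with saline. In this gene the LPS pools also lay below the saline pools after conditioning, but the nearest pools of the 2 groups were less than a single count apart.

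The 8 genes with saline non-conditioned pools below all others show the other way in which the ratio arose. In one of them the level was 117, 95.1 and 84.1 CPM with LPS and 83.1, 76.2 and 131 CPM with saline after conditioning. Without conditioning it was 236, 109 and 113 CPM with LPS and 44.4, 26.4 and 56.8 CPM with saline. The conditioned saline pools here lay above all non-conditioned saline pools, which holds in all 8 by the way they were picked. The LPS pools of the 2 states overlapped. A more abundant one was at 224, 214 and 268 CPM with LPS and 176, 199 and 219 CPM with saline after conditioning, and at 293, 271 and 189.5 CPM with LPS and 124, 132 and 155 CPM with saline without it. The LPS pools of that gene overlapped between the 2 states, and its non-conditioned saline pools were the lowest, again by the way it was picked.

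Most of the 67 genes combined both differences. After conditioning, the LPS level was lower than without it in 66 of 67 genes, by a median log2 ratio of -0.65 within -4.63 to 0.36. The saline level was higher after conditioning in 63 of 67, by a median of 0.53 within -0.41 to 2.21. Both held in 62 of the 67, and in 26.5% of all 3999 genes. The mean level was highest with LPS without conditioning in 64 genes and with saline after conditioning in 3. It was lowest with saline without conditioning in 58, with LPS after conditioning in 8 and with saline after conditioning in 1. In 35 genes the order from high to low was LPS non-conditioned, saline conditioned, LPS conditioned, saline non-conditioned, and in 21 the same with the conditioned groups exchanged. A list drawn for a high ratio in one state and a low one in the other tends to have this order, so these counts describe the list.

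**Figure D4:**
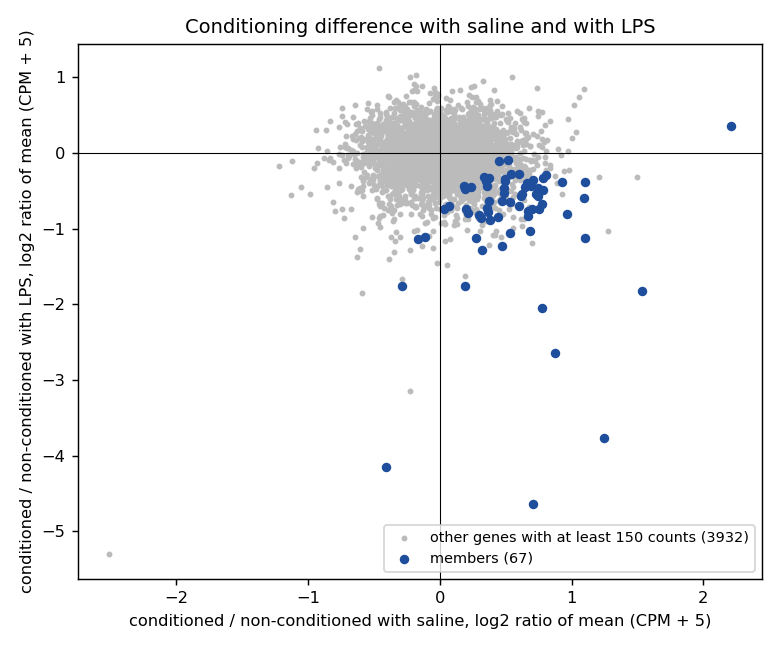
Log2 ratio of conditioned to non-conditioned group means of CPM + 5, with saline (horizontal) and with LPS (vertical), with 1 point per gene. Of the 67 genes, 62 lie in the lower right, with a higher saline level and a lower LPS level after conditioning.

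One comparison of the design was not used by the limits on the LPS ratios. The mean effect of conditioning over saline and LPS has weights that are orthogonal to both LPS responses when groups are of equal size. It asks whether these genes were higher or lower overall in conditioned birds. Independence from the choice also needs equal spread, and the list's median SD of log2(CPM + 5) within a group ran from 0.28 to 0.56. The minimum of 150 counts was part of the choice too, and a high level in a single group can meet it. ENSGALG00000010915.4 had 209 of its 271 counts with LPS without conditioning. How far the choice moved this comparison was not tested. No gene of the list passed: 0 of the 65 that could be tested were called, against 0.0193% of the 5170 genes tested, which is 1 gene outside the list (edgeR quasi-likelihood test, called at a p under 0.05 after Benjamini-Hochberg adjustment). At an unadjusted p under 0.05 there were 4 of the 65 (6.15%), 1 higher and 3 lower in conditioned birds. The share of all genes was 4.66%, with 1.74% higher and 2.92% lower, and DESeq2 also called 0 of the 65. The median log2 difference was -0.02 over the 65 genes and -0.01 over all 5170, with 31 above 0 and 34 below. The median standard error was 0.28 on the log2 scale, and a p that misses the threshold at that precision does not show that the groups were alike.

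The 4 genes with an unadjusted p under 0.05 had log2 differences between conditioned and non-conditioned birds of 1.60 ± 0.66, -1.06 ± 0.35, -0.60 ± 0.20 and -0.68 ± 0.26 (SE), with edgeR adjusted p-values of 0.99, 0.824, 0.824 and 0.95. The first of them was uneven between pools. It was at 55.5, 61.4 and 8.86 CPM with LPS and 175, 8.47 and 9.34 CPM with saline after conditioning, and at 50.4, 14.6 and 29.9 CPM with LPS and 12.7, 5.29 and 11.8 CPM with saline without it. The third is the tight gene described above, with the LPS non-conditioned pools above all others. ENSGALG00000033171.1 had a difference of -0.10 ± 0.34 and ENSGALG00000010915.4 of -1.05 ± 1.11 (SE, edgeR adjusted p = 0.999 for each). The second of these became 0.15 without LPS non-conditioned replicate 1.

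In the comparisons that the choice did use, the same model gives standard errors and calls. Both were made on the values that chose the genes, so they describe the list and are no test of it. For LPS without conditioning 8 of the 65 tested genes were called, all higher, against 0.542% of the 5170 genes, or 0.445% called higher. Their log2 fold changes ran from 1.08 to 5.21 without conditioning and from -1.06 to 0.28 after it. ENSGALG00000033171.1 had log2 fold changes of -0.58 ± 0.44 after conditioning and 2.88 ± 0.50 without it, and ENSGALG00000010915.4 of -1.06 ± 1.10 and 5.21 ± 1.09 (SE). In 7 of the 8 every non-conditioned LPS pool lay above every saline pool, against 5.9% of all 3999 genes. In 5 of the 8 LPS replicate 1 held over 50% of the summed LPS level. The count of 8 depended on single libraries. Leaving out replicate 2 of the saline non-conditioned group gave 0, and replicate 3 of it gave 3. Leaving out either replicate 1 or replicate 2 gave 3 in the LPS non-conditioned group and 5 in the LPS conditioned group. With replicate 1 of the saline non-conditioned group left out it was 13. For LPS after conditioning 0 of the 65 were called, against 0.174% of all genes, with 2 of the 65 at an unadjusted p under 0.05 (7.85% of all genes) and 0 called by DESeq2. The median standard error there was 0.36 on the log2 scale. In 12 of the 65 the 95% interval of that log2 fold change reached 0.8 or more. A missing call after conditioning therefore does not show that a rise was absent. The difference between the LPS effects was called in 0 of the 65 (0% of all genes), with 43 at an unadjusted p under 0.05 against 7.2% of all genes, and DESeq2 called 0. For conditioned against non-conditioned birds within LPS, edgeR and DESeq2 called 0 of the 65, with 25 at an unadjusted p under 0.05 in edgeR (6.58% of all genes). Within saline both called 0, with 14 at an unadjusted p under 0.05 in edgeR (4.95% of all genes).

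The pools of a group varied more in these genes than in others. A choice on group means favours genes with an uneven pool, so this larger spread describes the list. In 25 of the 67 a single LPS non-conditioned library held at least 50% of that group's summed CPM, against 6.25% of all 3999 genes. The median SD of log2(CPM + 5) within a group was 0.28 with LPS and 0.42 with saline after conditioning, and 0.52 with LPS and 0.56 with saline without it. For the other 3932 genes it was 0.21, 0.24, 0.27 and 0.33 in the same order. The 67 were also less abundant, with a median of 278 counts against 412 for all 3999 genes. The parts of abundance and of the choice in these values were not tested. Deviations from the group means ran weakly together, with a median correlation of 0.14 over the 2211 pairs of the 67 genes and of 0.03 over pairs of the 3999. Without the LPS non-conditioned libraries the medians were 0.11 and 0.05. These pairs share their libraries and depth. The choice can favour genes that are uneven in the same libraries, and leaving out the LPS non-conditioned group keeps the saline conditioned libraries it also used. The median deviation of the 67 was 0.34 in LPS non-conditioned replicate 1 and 0.22 in saline conditioned replicate 3. Over all 3999 genes it was -0.02 and 0.06. These correlations therefore describe the list.

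Membership of the list depended on single pools. With LPS non-conditioned replicate 1 left out 36 of the 67 genes met the rule again, 29 having a ratio under 0.8 and 2 fewer than 150 counts. With saline non-conditioned replicates 3, 2 and 1 left out 45, 51 and 53 of the 67 were kept, and with LPS non-conditioned replicates 2 and 3 left out 48 and 54. With saline conditioned replicate 3 left out 46 were kept, 12 having a ratio of 0.3 or more after conditioning and 9 fewer than 150 counts. With any other library left out 57 to 64 were kept. Without saline non-conditioned replicate 1 the rule took 193 genes, 53 of them among the 67.

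**Figure D5:**
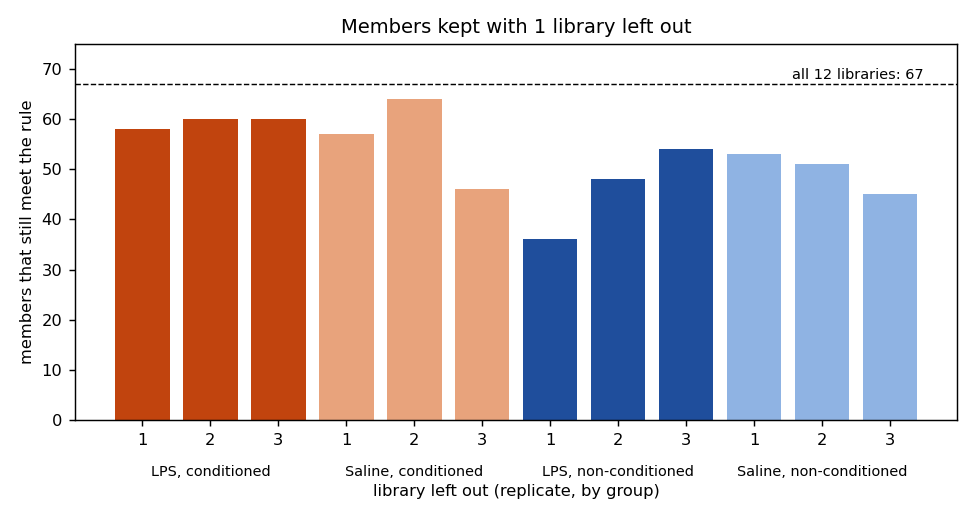
Number of the 67 genes that met the rule again with 1 library left out, by the library left out (replicates 1 to 3 of each group). The lowest bar, at 36, is LPS non-conditioned replicate 1, and the highest, at 64, is saline conditioned replicate 2.

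In 9 of the 67 genes the rule held with every library left out in turn, and in 11 when the minimum of 150 counts was not applied again. These 11 include both genes given by identifier, and had log2 ratios of -0.60 to 0.09 after conditioning and 1.02 to 4.42 without it, with medians of -0.12 and 1.36. In 9 of the 11 every LPS pool lay above every saline pool without conditioning, against 35 of the 67 and 5.9% of all 3999 genes. The 11 were picked on the same values, which favours such separation, so this count describes the list. One of the 11 was at 117, 83.2 and 68.6 CPM with LPS and 81.4, 67.7 and 103 CPM with saline after conditioning, and at 107, 153 and 140 CPM with LPS and 79.3, 47.6 and 31.4 CPM with saline without it. A second was at 141, 122.8 and 131 CPM with LPS and 93.2, 122.8 and 157 CPM with saline after conditioning, and at 264, 255 and 149.6 CPM with LPS and 95.1, 137 and 90.2 CPM with saline without it. In both, the conditioned LPS and saline pools were interleaved, while the non-conditioned pools were apart. In the second gene the nearest of these were at 149.6 and 137 CPM, where a single count stands for 3.33 and 5.29 CPM. By comparison, in 9 of the 14 genes with ratios of at least 0.8 in both states the pattern held with every library left out. It did so in 0 of the 12 with the opposite pattern, with no minimum applied again in either list. The lists differ in their limits and in abundance, with medians of 474 and 250.5 counts per gene, against 278 for the 67. No test was made of these shares.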

How the data were processed

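Per the labels' protocols, libraries were made from 15 ng of RNA by bulk MARS-seq, which counts the 3′ ends of transcripts. Tools named in the submitters' processing notes are HTSeq, STAR, DESeq2 and cutadapt, with the build galGal5. The annotation, tool versions, strand setting and any molecular identifiers were not given in the sources used here, so counts of overlapping genes and near-identical copies are uncertain. The authors deposited raw counts for 11207 genes, used unchanged, and a normalized signal, which is the raw count times a factor per library (1.13 to 6.25) and served for an alternative scaling only. Library totals were 189180 to 963146 counts. Intervals and floors of 3 counts cover counting error only.

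The list was made with CPM by column sums. Tests used edgeR 4.0.16 in R 4.3.3 (filterByExpr with minimum count 10, leaving 5170 genes and 65 of the 67, TMM, quasi-likelihood, 2-sided, 1 mean per group over 12 libraries, Benjamini-Hochberg over all genes). The averaged comparison alone was checked on simulated counts with the same dispersion in every gene. That check does not cover uneven pools or the LPS comparisons. The standard error is the log2 fold change divided by the square root of F. DESeq2 1.42.0, RLE factors, TMM-scaled library sizes for the list, other filters, pseudocounts of 1 and 10, a replicate block and each library left out were alternatives. The members and lists were chosen with earlier results of these data known. Of 25635 genes in the reference table (GRCg7b), 0 matched an identifier, so the 12 gene lists and 9 marker lists planned were not applied and no sequence is shown. The rule for naming took genes with at least 20 CPM with LPS without conditioning and no overlap there with saline, ranked by the difference between the LPS responses, and the first 2 are given by identifier; any other gene singled out was chosen after its values were seen. Replicates are separate pools as far as the labels say.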

Additional observations from a re-analysis of the deposited data

Results flagged for a closer look

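In 3 of the 67 genes the LPS pools lay above all saline pools without conditioning and below all of them after it. The same pattern was found in 0.325% of all 3999 genes, and the choice of the list favours it. The log2 ratio of LPS to saline was lower after conditioning than without it by 1.46, 1.32 and 1.09 in these genes. The first was at 72.6, 73.3 and 66.4 CPM with LPS and 81.4, 88.9 and 125 CPM with saline after conditioning. Without conditioning it was at 189, 82.9 and 76.5 CPM with LPS and 69.7, 37 and 58.8 CPM with saline. Its nearest non-conditioned pools, at 76.5 and 69.7 CPM, were only a few counts apart, as a single count there stands for 3.33 and 3.17 CPM. The second was at 40.6, 33.7 and 31.0 CPM with LPS and 40.7, 59.3 and 50.9 CPM with saline after conditioning, so that the conditioned groups were separated by less than a single count. Without conditioning it was at 47.2, 55.2 and 39.9 CPM with LPS and 22.2, 26.4 and 23.5 CPM with saline. The last is the tight gene at 38.4 to 42.1 CPM with LPS after conditioning that is described in the report, and its conditioned groups were also separated by less than a single count. The 67 were chosen for such a difference, so it was not tested, and no explanation was examined.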

How the results depend on the processing

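The rule gave 67 genes. A minimum of 300 counts gave 28, all among the 67, and no minimum gave 436. Pseudocounts of 1 and 10 gave 89 and 48. Library sizes scaled by TMM, RLE and the authors' factors all gave fewer genes, at 54, 57 and 51, with 54, 56 and 51 of the 67 kept. Leaving out a library gave 50 to 193 genes, with 36 to 64 of the 67 kept. For conditioning averaged over saline and LPS, with 1 gene called and 0 of the list, DESeq2 called 2, a replicate block 2 and no filter 37, 3 of them in the list, and leaving out a library 0 to 6, with 0 in the list. With no filter on low counts the genes called, and those in the list, were 80 and 23 for LPS without conditioning, 65 and 1 for LPS after conditioning, 35 and 13 for the interaction, 64 and 14 for conditioning with LPS and 8 and 3 for conditioning with saline. That fit gave smaller standard errors at similar log2 fold changes in both genes given by identifier. For LPS without conditioning ENSGALG00000033171.1 had 2.86 ± 0.24, against 2.88 ± 0.50 with the filter. ENSGALG00000010915.4 had 5.18 ± 0.45, against 5.21 ± 1.09 (SE). Why the standard errors differed was not tested, so the larger counts add no support to the list. For conditioning with LPS, with 0 called, DESeq2 gave 1 and the replicate block 2. Leaving out a library gave 8 to 65 genes (0 to 13 of the list) for LPS without conditioning, where 28 and 8 were called, and 2 to 22 (0 to 1) for LPS after conditioning, where 9 and 0 were called. It gave 0 to 5 (0 to 4) for the interaction, 0 to 16 (0 to 4) for conditioning with LPS and 0 (0) for conditioning with saline. The averaged difference of ENSGALG00000033171.1, at -0.10, was 0.038 with the replicate block and -0.31 to 0.46 with a library left out. It turned positive when replicate 1 of either non-conditioned group or replicate 2 of the saline conditioned group was left out. That of ENSGALG00000010915.4, at -1.05, was -1.31 to 0.15, positive only with LPS non-conditioned replicate 1 left out. The cause of these moves was not tested. Same-numbered libraries of different groups showed little common deviation (correlations of -0.12 to 0.16, above 0.1 in 3 of 18 pairs). With 3 libraries per group this cannot exclude that same-numbered pools shared a batch, and the labels name no pairing. The authors' factors, added after the data were seen, and RLE factors kept the counts within 1.5 times. Low depth, with a median of 5 counts per gene of the list in the shallowest library, limits all of these values.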
